A study of Saccharomyces cerevisiae with 6 samples.

Results

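The genes described here encode the proteins of the yeast cytosolic ribosome. They were taken from the count tables of Saccharomyces cerevisiae BY4741 by name alone: a feature was a member when its symbol in the S288C R64 gene table was RPL (large subunit) or RPS (small subunit) with a number and an optional copy letter A or B, and the stalk genes RPP0, RPP1A, RPP1B, RPP2A and RPP2B were added. This gave 137 of the 6572 features listed, 81 of the large and 56 of the small subunit. They encode 78 proteins, 59 of them from a pair of genes (an A and a B copy) and 19 from a single gene. The rule itself uses names and no measured value, though it was set with earlier results of these data known.

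The BY4741 group consisted of 3 libraries (replicates 1, 2 and 3) made with an mRNA kit from the RNA of cell pellets, after 6 h of growth in a medium called ILM, to the middle of exponential phase. BY4741 is a widely used haploid derivative of S288C in which LEU2, URA3 and MET17 are deleted and HIS3 is damaged. The first 3 of these genes had 0 reads in each library, and HIS3, of which a part remains, had 925, 196 and 285 reads in replicates 1, 2 and 3. The series also holds 3 libraries of S. boulardii Biocodex, whose identifiers name no gene and share 0 names with those of BY4741, so the members could not be followed there. Whether the libraries came from separate cultures is not stated, so the spread between them may be technical.

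A ribosome holds nearly all of its proteins in equal numbers, with the stalk proteins as the best known exception, and growing yeast spends a large part of its transcription on these genes. Many of the genes survive as pairs from an ancient duplication of the whole genome, and the copies of most pairs encode identical or closely similar proteins. Introns are rare in yeast and are concentrated in these genes. The transcription factors Rap1, Fhl1 and Ifh1 drive them, and TOR and protein kinase A signalling adjust their output to nutrients.

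Depth was 18707708, 5181546 and 4581414 counted reads in replicates 1, 2 and 3. Levels are given as CPM, the reads of a gene scaled to the total of its library, per kb of coding length, so that genes of unlike length can be compared. Of the members, 136 had reads in each library and 135 had at least 100. RPS28B, with 64 reads in replicate 2, and RPL22B, with 0 there, were the other two. The members took 8.31% of the reads in replicate 1 (95% Wilson interval 8.29 to 8.32), 5.73% in replicate 2 (5.71 to 5.75) and 8.36% in replicate 3 (8.34 to 8.39). These intervals cover counting error only.

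The median member stood at 1064, 679 and 1031 CPM per kb in replicates 1, 2 and 3, against 44.1, 44.6 and 46.9 CPM per kb for the median of all 5898 features matched to a named gene. Within the family the mean levels ran from 38.7 ± 34.0 CPM per kb (SD, n = 3) for RPL22B to 7153 ± 1646 (SD, n = 3) for RPL41A. The SD of log2 levels over the 137 genes was 1.10, 1.43 and 1.18 in the 3 libraries. The value of replicate 2 includes RPL22B, whose count of 0 was set to 3 reads. The SD without RPL22B was not computed, so no wider spread of the family in replicate 2 is read from it. Summing the copies of each pair gave 78 proteins with an SD of 0.79, 0.90 and 0.81, smaller than the SD over genes in each library. A sum of 2 levels can narrow such a spread by itself. No sums of unrelated genes were made for comparison, so nothing is read from the smaller SD.

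**Figure D1:**
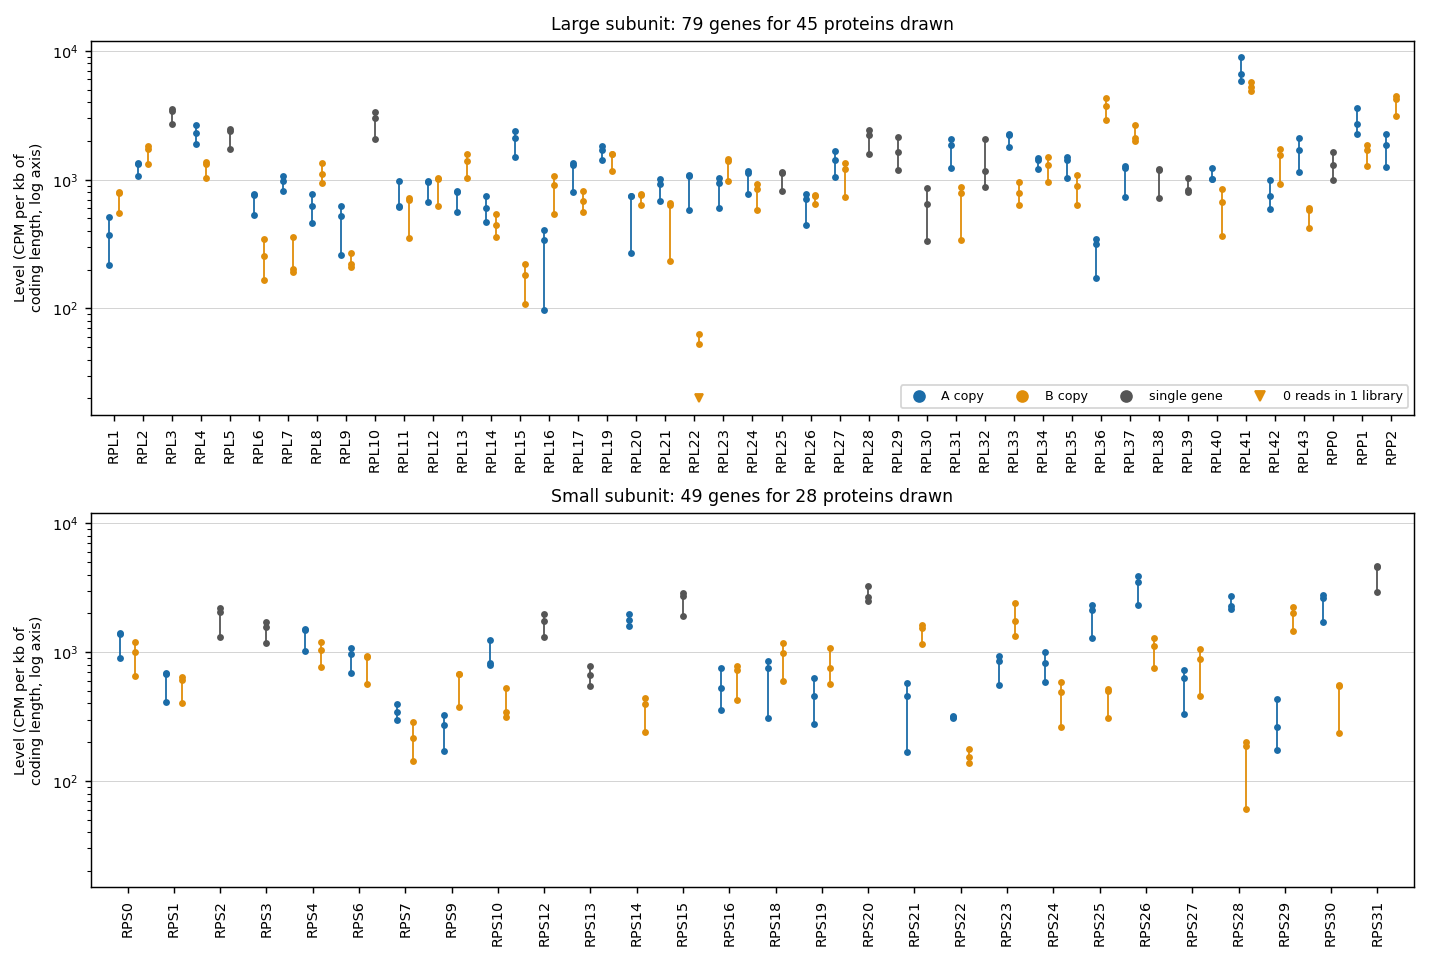
Levels of 128 of the 137 ribosomal protein genes, in CPM per kb of coding length on a log axis, by protein. Each point is 1 of 3 BY4741 libraries and each line joins the lowest and highest library of a gene, with A copies in blue, B copies in orange and single genes in grey. On this scale RPL41A and RPL41B, with 78 coding bases each, are the highest genes, at means of 7153 and 5274, a rank that depends on that short length. RPL22B is the lowest, with 0 reads in replicate 2 (triangle).

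Per kb of coding length, RPL41A and RPL41B led the family. This rank depends on dividing by a very short length: by CPM alone their means were 558 and 411, against 3757 for RPL3. RPL41A and RPL41B encode the same peptide of 25 residues, the shortest protein of the ribosome. RPL41A (YDL184C) stood at 6619, 8999 and 5840 CPM per kb in replicates 1, 2 and 3, and RPL41B (YDL133C-A) at 5238, 5708 and 4875. Their coding sequences have 78 bases and differ at 1 base, which is shown in capitals because it is all that separates reads within the coding part of these copies. Both lie on the minus strand of chromosome IV of the R64 genome, RPL41A at chrIV:130407-130484 and RPL41B at chrIV:221724-221801.
RPL41A: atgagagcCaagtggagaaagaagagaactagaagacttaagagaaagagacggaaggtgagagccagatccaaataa
RPL41B: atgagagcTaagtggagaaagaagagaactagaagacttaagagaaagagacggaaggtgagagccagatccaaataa
Of the 50-base words in these coding sequences, 69.0% occur in both copies, so how their reads divide is uncertain. Whether reads of the untranslated parts of the transcript were counted is not known, and they would weigh most on so short a coding part.

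Behind RPL41A and RPL41B in level per kb came RPS31 (YLR167W), which encodes a small subunit protein made as a fusion with ubiquitin. It stood at 4565, 2919 and 4662 CPM per kb, a mean of 4048 ± 979 (SD, n = 3). RPL40A and RPL40B, the ubiquitin fusions of the large subunit, stood lower, at 1084 ± 134 and 628 ± 247 CPM per kb (SD, n = 3 each). RPL36B stood at 3653 ± 718 and RPS26A, whose protein lines the exit channel of the mRNA, at 3240 ± 818 CPM per kb (SD, n = 3 each).

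Among the single genes, RPL3 (YOR063W), whose protein reaches towards the peptidyl transferase centre, stood at 3423, 2720 and 3540 CPM per kb. RPL10 (YLR075W), which is added late and is needed for the subunits to join, stood at 3030, 2061 and 3382. RPL5 (YPL131W), which carries one of the ribosomal RNAs into the large subunit, stood at 2395, 1742 and 2463. In each of these genes replicate 2 was the lowest library.

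RPL28, known for cycloheximide resistance alleles, stood at 2082 ± 443 CPM per kb, and RPL25, at the exit of the peptide tunnel, at 1028 ± 186 (SD, n = 3 each). In the small subunit, RPS2 and RPS3, which lie along the path of the mRNA, stood at 1846 ± 476 and 1494 ± 289 CPM per kb (SD, n = 3 each). At the low end of the single genes were RPS13, at 664 ± 118, and RPL30, at 617 ± 265 CPM per kb (SD, n = 3 each). The Rpl30 protein is known to hold back splicing of its own transcript. RPL30 was at 650, 337 and 863 CPM per kb in replicates 1, 2 and 3.

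The stalk genes were unequal in level. The stalk recruits translation factors, and in it 1 protein encoded by RPP0 anchors dimers of the acidic proteins encoded by RPP1A, RPP1B, RPP2A and RPP2B. RPP0 (YLR340W) stood at 1291, 992 and 1628 CPM per kb, while the sum of RPP1A and RPP1B was 4429, 3553 and 5445 and that of RPP2A and RPP2B 6535, 4355 and 6303. The summed RPP1 genes exceeded RPP0 by 3.43-fold, 3.58-fold and 3.34-fold, and the summed RPP2 genes by 5.06-fold, 4.39-fold and 3.87-fold (exact two-sided sign-flip permutation p = 0.25 for each). The coding part has 939 bases in RPP0 and 321 or 333 in the acidic genes, so these folds depend on the length used. They were not recomputed with another length. With 3 libraries, 0.25 is the smallest p that this test can give, here and for every value tested below.

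Among the acidic stalk genes, RPP2B was highest, at 3930 ± 726 CPM per kb, followed by RPP1A at 2859 ± 670, RPP2A at 1802 ± 514 and RPP1B at 1616 ± 297 (SD, n = 3 each). RPP1A exceeded RPP1B in 3 of 3 libraries, with log2 ratios of 0.67, 0.82 and 0.95, and RPP2B exceeded RPP2A, with log2 ratios of A over B of -0.90, -1.30 and -1.25. These pairs have diverged most among the 59, with encoded proteins identical at 59.6% of aligned positions for RPP1A and RPP1B and 61.8% for RPP2A and RPP2B. They share 0% of 50-base words, so their reads can be told apart.

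The large subunit genes had a slightly higher median than the small subunit genes. The medians were 1083, 739 and 1114 CPM per kb for the large and 992, 580 and 905 for the small subunit, a log2 difference of 0.13, 0.35 and 0.30 (mean 0.26 ± 0.12, SD, n = 3; exact permutation p = 0.25). With 1 value per protein, copies summed, the difference was 0.12, 0.09 and 0.03 (mean 0.08 ± 0.05, SD, n = 3). The excess of the large subunit was therefore smaller per protein than per gene, with the same sign in each library. By reads, the large subunit took 62.8%, 64.5% and 62.8% of those on the members.

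Genes that alone encode a protein stood above genes that share it with a copy. The 19 single genes had medians of 1746, 1195 and 1979 CPM per kb and the 118 copies of pairs 993, 619 and 923, a ratio of 1.76-fold, 1.93-fold and 2.14-fold (mean log2 0.95 ± 0.14, SD, n = 3; exact permutation p = 0.25). Summed over both copies, the 59 paired proteins had medians of 2136, 1411 and 2131 CPM per kb. The single genes lay below these sums in 3 of 3 libraries, with log2 differences of -0.29, -0.24 and -0.11 (mean -0.21 ± 0.09, SD, n = 3; exact permutation p = 0.25). The size depended on the length used: the mean was -0.41 per kb of unique 50-base words and -0.0855 with 200 bases added to each coding length. A protein with 1 gene and a protein with 2 genes were thus closer in summed level than their genes were in single level. Against the higher copy of each pair alone, the single genes stood above, with log2 differences of 0.32, 0.32 and 0.49.

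**Figure D2:**
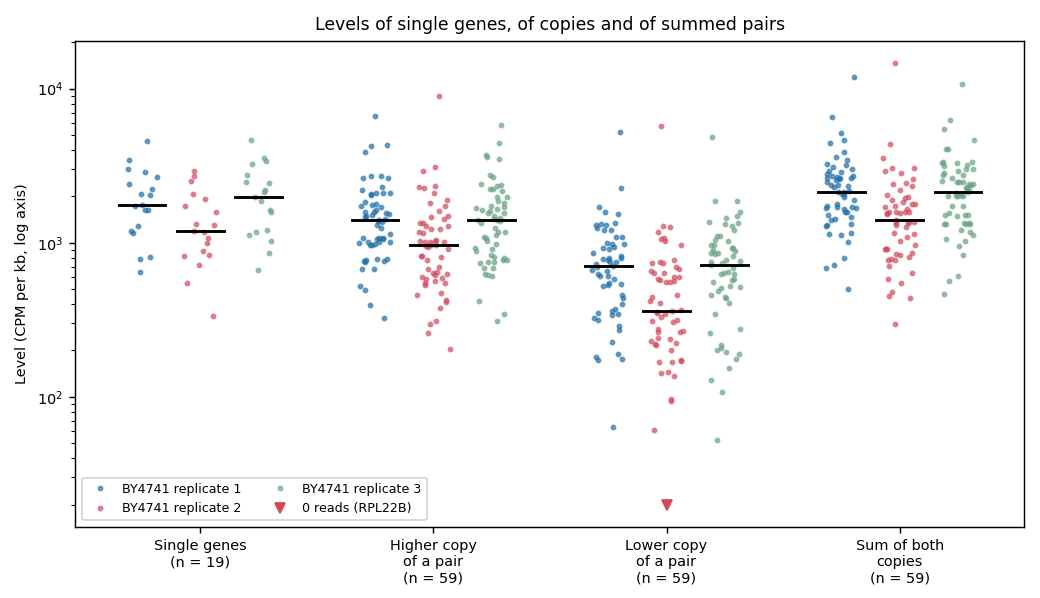
Levels of single genes, of the higher and the lower copy of each pair, and of both copies summed, in CPM per kb on a log axis, with 1 point per gene or protein, colours for the 3 BY4741 libraries and black bars for medians. The medians of the single genes (1746, 1195 and 1979) lie between those of the higher copies (1403, 960 and 1410) and those of the summed pairs (2136, 1411 and 2131). The medians of the lower copies (708, 361 and 722) are the lowest.

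Members with an intron in their coding part had a lower median than members without. The medians of the 89 genes with an intron were 982, 599 and 911 CPM per kb, and those of the 48 genes without were 1469, 1009 and 1474 (mean log2 difference -0.68 ± 0.09, SD, n = 3; exact permutation p = 0.25). Single genes are mostly without introns, 14 of 19, and copies of pairs mostly with, 84 of 118. Among copies of pairs alone the difference was smaller, at -0.10, -0.19 and -0.24 (mean -0.17 ± 0.07, SD, n = 3). Among the single genes it was -1.36, -0.68 and -1.07, with 5 genes that have an intron. In the 2 pairs whose copies differ in having an intron, the copy without one was higher in 3 of 3 libraries: RPP1A over RPP1B and RPS22A over RPS22B, the latter with log2 ratios of 0.87, 1.18 and 1.03. The RPS22B gene also overlaps an annotated small nucleolar RNA outside its coding part.

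Within pairs, the order of the copies was usually the same in the 3 libraries. It was kept in 53 of 59 pairs (89.8%), 35 with the A copy and 18 with the B copy higher. Over all 13043278 pairs of genes averaging 10 CPM or more, the order was kept in 83.4%, so an order that holds in 3 libraries is common between any 2 genes. Copies lay over 2-fold apart in the same direction in each library in 20 pairs (33.9%), against 56.0% of all pairs of genes. A gap of that size was therefore less frequent between copies than over all pairs of genes, a difference that was not tested. All pairs of genes include genes of any level from 10 CPM up, while the members are mostly high. Copies were not compared with 2 unrelated members, so no closeness particular to copies is read from this. In 15 pairs the copies were within 1.5-fold in each library. The 20 pairs over 2-fold were 10 of the 35 large subunit pairs and 10 of the 24 small subunit pairs.

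**Figure D3:**
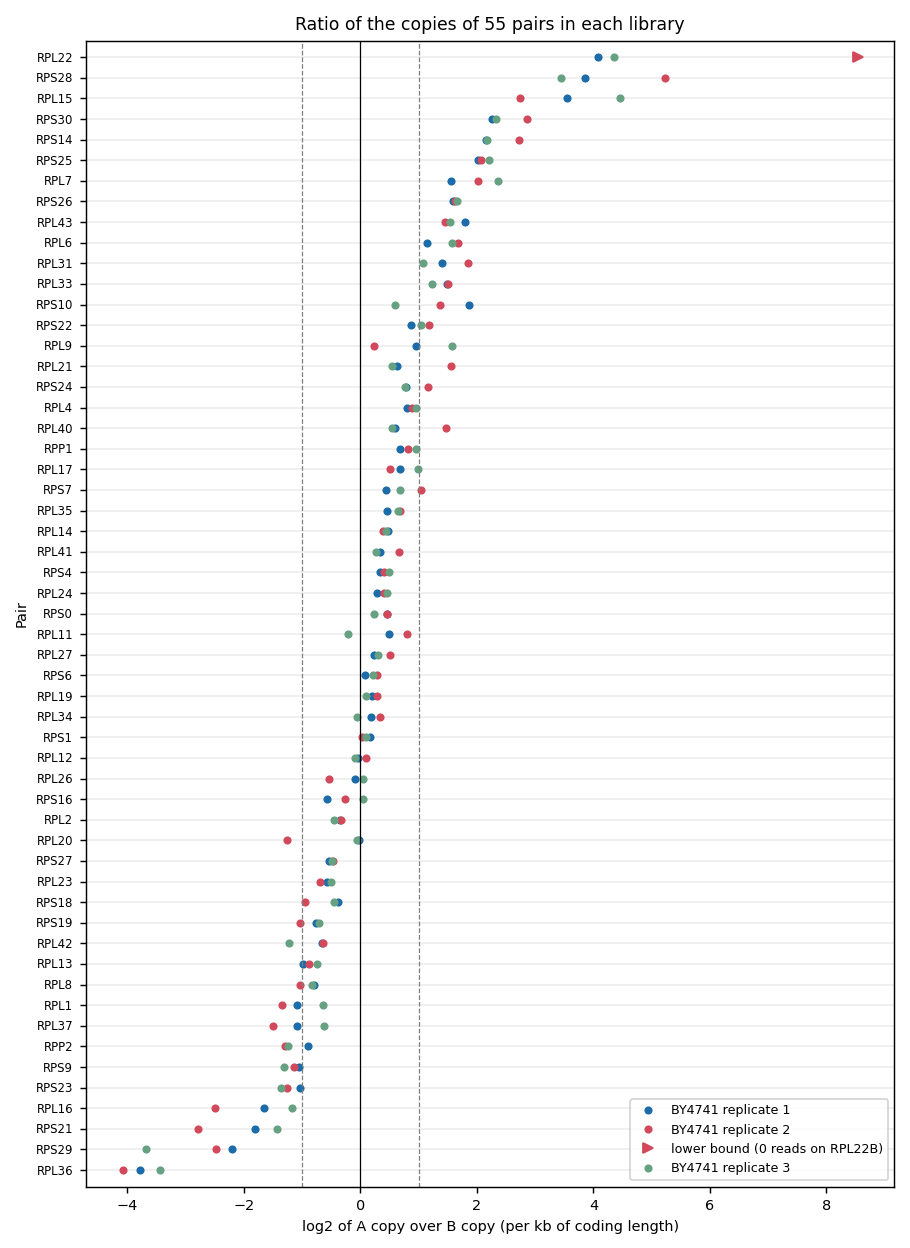
The log2 ratio of the A over the B copy for 55 of the 59 pairs, with 1 point per BY4741 library, a solid line at equal levels and dashed lines at a 2-fold difference. The points of a pair mostly stay on 1 side of the solid line (50 of the 55 drawn), and RPL22, RPS28, RPL36 and RPL15 lie farthest from it. The RPL22 value of replicate 2 is drawn as a lower bound, which covers counting error only.

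RPL22 had the widest mean gap, which includes the count of 0 set to 3 reads, while in replicate 3 RPL15 was wider, at a log2 ratio of 4.46. RPL22A (YLR061W) had 7400, 1106 and 1799 reads in replicates 1, 2 and 3, and RPL22B (YFL034C-A) had 439, 0 and 89. RPL22A was 17.0-fold higher per kb in replicate 1 and 20.4-fold in replicate 3. In replicate 2, the count of 0 on RPL22B set to 3 reads gives 372-fold, a lower bound for counting error only. Whether reads of RPL22B were lost in that library is not known, so the fold there is uncertain. RPL22A made up 94.4% and 95.3% of the reads of the pair in replicates 1 and 3. The copies encode proteins of 121 and 122 residues that are identical at 84.4% of positions and share 0% of 50-base words, and the Rpl22 protein is known to bind the RPL22B transcript and limit its splicing.

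The count of 0 was not particular to RPL22B. In replicate 2, 24 genes had 0 reads while they stood at 10 CPM or more in both other libraries, in replicate 3 there were 16 such genes, and in replicate 1 there were 0. RPL22B was the only member among them. FAP7, described further on among the chaperones, was another. The gap within RPL22 exceeded 2-fold in replicates 1 and 3 as well, without that library.

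RPS28 came next. RPS28A (YOR167C) stood at 2718, 2284 and 2181 CPM per kb and RPS28B (YLR264W) at 188, 60.5 and 201, a mean log2 ratio of 4.18 ± 0.94 (SD, n = 3; exact permutation p = 0.25), or 18.1-fold. The ranges of the copies were far apart, and most of the spread came from RPS28B in replicate 2. Rps28 is a small protein of the mRNA exit region, and its surplus is known to promote decay of the RPS28B mRNA. The coding sequences are printed in full, with the 24 of 204 bases that differ in capitals, because the copies encode proteins that differ at 1 of 67 residues and yet share 0% of 50-base words. RPS28A lies at chrXV:648804-649007 on the minus strand and RPS28B at chrXII:673131-673334 on the plus strand of R64.
RPS28A: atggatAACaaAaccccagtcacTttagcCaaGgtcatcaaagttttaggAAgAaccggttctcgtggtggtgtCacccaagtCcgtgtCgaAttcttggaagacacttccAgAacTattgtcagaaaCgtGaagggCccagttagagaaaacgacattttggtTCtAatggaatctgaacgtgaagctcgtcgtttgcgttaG
RPS28B: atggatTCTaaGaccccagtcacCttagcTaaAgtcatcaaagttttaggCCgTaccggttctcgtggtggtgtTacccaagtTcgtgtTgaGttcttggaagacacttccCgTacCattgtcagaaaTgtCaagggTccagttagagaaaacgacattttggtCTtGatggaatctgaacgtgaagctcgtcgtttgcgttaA

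In other wide pairs the major copy was A or B. RPL36B exceeded RPL36A by 13.6-fold (log2 of A over B -3.77 ± 0.32, SD, n = 3), with RPL36A at 315, 171 and 344 CPM per kb and RPL36B at 4331, 2901 and 3729. RPL15A exceeded RPL15B by 12.0-fold (log2 3.59 ± 0.86, SD, n = 3). RPS29B exceeded RPS29A by 6.92-fold (log2 of A over B -2.79 ± 0.78, SD, n = 3). All 3 kept their direction in 3 of 3 libraries. Among the lowest members after RPL22B were other lower copies: RPS28B at 150 ± 77.8, RPS22B at 155 ± 19.4, RPL15B at 170 ± 58.4, RPS7B at 216 ± 72.8 and RPL9B at 234 ± 33.5 CPM per kb (SD, n = 3 each).

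Other pairs over 2-fold in each library included RPL6, RPL7, RPL31, RPL33, RPL43, RPS14, RPS25, RPS26 and RPS30 with the A copy higher, and RPL16, RPS9, RPS21 and RPS23 with the B copy higher. RPS14A exceeded RPS14B by 5.09-fold (log2 2.35 ± 0.33, SD, n = 3), and Rps14, a protein of the platform of the small subunit, is known to repress RPS14B. RPS9B exceeded RPS9A by 2.25-fold (log2 of A over B -1.17 ± 0.13, SD, n = 3), and splicing of this pair is known to be under feedback from its protein. The ratio of RPS26 varied little, at 1.59, 1.63 and 1.66 on the log2 scale.

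By mean log2 ratio of A over B, RPS30 stood at 2.48 ± 0.33, RPS25 at 2.10 ± 0.10, RPL7 at 1.98 ± 0.40, RPL6 at 1.46 ± 0.28, RPL31 at 1.44 ± 0.39 and RPL33 at 1.41 ± 0.16 (SD, n = 3 each), and RPL43A exceeded RPL43B by 3.03-fold. On the side of the B copy, RPS21 stood at -2.01 ± 0.70, RPL16 at -1.77 ± 0.67 and RPS23, whose protein takes part in decoding, at -1.22 ± 0.17 (SD, n = 3 each). RPS21 and RPL16 owed much of their spread to replicate 2, with log2 ratios of -2.79 and -2.50 there against -1.81 and -1.65 in replicate 1 and -1.43 and -1.17 in replicate 3. In both pairs it was the lower copy, RPS21A or RPL16A, that was farthest down in that library.

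Some pairs passed 2-fold on average without doing so in each library. RPS10 had log2 ratios of 1.86, 1.37 and 0.60, RPL37 of -1.08, -1.50 and -0.63, and RPL1 of -1.08, -1.34 and -0.64. RPL21 and RPL40 passed 2-fold in replicate 2 alone, at 1.55 and 1.46 against 0.63 and 0.60 in replicate 1 and 0.54 in replicate 3 for both. Between these and the closest pairs were steady, small gaps. RPS27 stood at -0.50 ± 0.03, RPL14 at 0.44 ± 0.04, RPL2, a protein of the peptidyl transferase region, at -0.38 ± 0.07 and RPL24 at 0.38 ± 0.09 on the log2 scale (SD, n = 3 each), so a small gap could be as repeatable as a large one.

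At the other end, RPL12A and RPL12B, which encode a protein at the base of the stalk, stood at 873 ± 174 and 890 ± 229 CPM per kb (SD, n = 3 each). Their log2 ratios were -0.05, 0.10 and -0.09. Among the other close pairs by mean log2 ratio were RPS1 at 0.09 ± 0.07, RPL34 at 0.15 ± 0.20, RPL19 at 0.19 ± 0.10 and RPS6 at 0.20 ± 0.10 (SD, n = 3 each). The order of the copies changed between libraries in 6 pairs, among them RPL11, RPL12, RPL26, RPL34 and RPS16. In RPL20 the order held, but the log2 ratio was -0.03, -1.26 and -0.05, so the gap came from replicate 2 alone.

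Likeness of sequence limits what counts can show for some pairs. The coding sequences of the 59 pairs were identical at 69.2% to 99.4% of aligned positions, with a median of 93.2%. In 8 pairs, among them RPL1, RPL4, RPL7, RPL11, RPL35, RPL41 and RPS6, over 50% of 50-base words occur in another gene, and their counts are uncertain because it is not known how shared reads were assigned. Of these 8, 1 was over 2-fold apart in each library (RPL7), against 19 of the other 51. The median absolute log2 ratio was 0.51, 0.85 and 0.60 in the 8 and 0.81, 1.14 and 0.84 in the 51. Of the 21 pairs with identical proteins, 4 were over 2-fold apart, and of the 38 with different proteins 16. These counts describe the pairs and were not tested.

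Replicate 2 held less ribosomal protein RNA than the other libraries, member by member. In this library 69 of 137 members (50.4%) were over 1.5-fold below the mean of the other libraries, against 18.6% of the 5131 features averaging 10 CPM or more. Only 1 member, RPL15B, was over 1.5-fold above, against 12.5% of all features. Replicate 2 was the lowest library for 126 members (92.0%), against 38.1% of all features. Replicate 1 was the lowest for 1 member, RPL39, against 30.9%, and replicate 3 for 10, against 31.0%. The median log2 deviation of the members was 0.28, -0.58 and 0.26 in replicates 1, 2 and 3, and that of all features -0.04, -0.04 and 0.05.

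**Figure D4:**
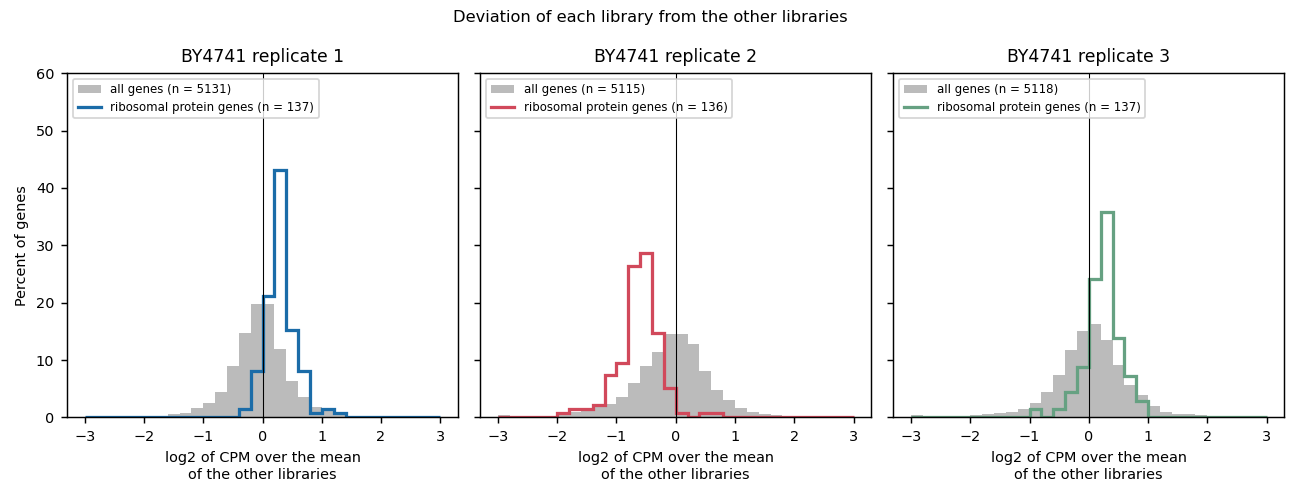
Distribution of log2 CPM of each BY4741 library over the mean of the other libraries, as percent of genes in bins of log2 deviation, for all features averaging 10 CPM or more (grey) and for ribosomal protein genes (line), with values beyond the axis placed in the end bins and genes at 0 reads left out. The ribosomal protein genes are shifted as a block, with medians of 0.28, -0.58 and 0.26, while all features centre near 0.

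The shift was present in both subunits and in single genes. In replicate 2 the median log2 deviation was -0.54 for the large and -0.68 for the small subunit, and -0.56 for single genes. By count, 33 of 81 large and 36 of 56 small subunit genes were over 1.5-fold lower. Replicate 3 had fewer reads than replicate 2 and a share on members close to that of replicate 1. With all libraries thinned to the depth of replicate 3 the count was again 69. Thinning takes reads evenly from all genes, so it could hardly move this count, and the part of depth was not tested. In RNA from a whole culture, a lower level in every cell and a larger share of cells with low levels cannot be told apart. Neither can be told from a technical difference between the libraries, and the cause of the shift was not tested.

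Some members left the block. RPL41A was highest in replicate 2, at a log2 deviation of 0.53, and RPL41B stood at 0.17. RPL15B stood at 0.63, with 180, 223 and 108 CPM per kb in replicates 1, 2 and 3. In the other direction, RPL16A was at 340, 96.5 and 405 CPM per kb (log2 deviation -1.95), RPS28B at -1.69 and RPS21A at -1.62. RPS29A, at 437, 262 and 175 CPM per kb, was one of the 10 that were lowest in replicate 3. With the median of the members taken off each library, the most variable genes were RPL22B, RPL16A, RPL15B, RPS29A and RPS28B. Each is the lower copy of its pair, as are 59 of all 137 members. Which copy is lower was read from the mean of these same libraries, and a drop in 1 library also lowers that mean. The value of RPL22B includes the count of 0 set to 3 reads, so nothing is read from this list.

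The copies of a pair were farther apart in replicate 2. The absolute log2 ratio was largest in that library in 33 pairs (55.9%), in replicate 1 in 10 and in replicate 3 in 16. Between any 2 genes averaging 10 CPM or more the gap was largest in replicate 2 in 35.8%. Copies were not compared with 2 unrelated members, so no widening particular to copies is read from this. The median absolute log2 ratio over the 59 pairs was 0.78, 1.05 and 0.75. In replicate 2, 37 of 59 lower copies and 24 of 59 higher copies were over 1.5-fold below the other libraries. Which copy is the lower one was itself read from the mean of these libraries, so the last counts are a description.

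Replicates 1 and 3 each had members above the rest. Of the members, 16 (11.7%) were over 1.5-fold higher in replicate 1, against 8.15% of all features, among them RPL32, RPS10A and both copies of RPS19 and RPS27. In replicate 3 there were 14 (10.2%), against 15.1%, among them RPL30, RPL29 and RPS23B. None was over 1.5-fold lower in replicate 1, against 11.2%, and 2, RPL15B and RPS29A, were so in replicate 3, against 13.1%. Each of these comparisons includes replicate 2, the lowest library for 126 members, in its reference, so they are not independent of that shift, and nothing is read from these shares.

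Upstream of the start codons, a strict form of the Rap1 motif was more frequent in members than over all genes. On either strand, it occurred in the 500 bases before the start codon in 19 of 137 members (13.9%) and in 0.966% of all 5898 genes. A shorter form, which overlaps it, occurred in 21 members and 1.42% of all genes, and ACCCATACA, which overlaps both, in 24 members (17.5%) and 1.14%. In the window from 250 bases before to 50 after the start codon only 4 members held the strict form, all of them lower copies, against 0.475%, so most matches lay farther upstream. Windows of neighbouring divergent genes overlap and can hold the same match.

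In the longer window the strict form was found in both kinds of copy. It was present for 10 higher copies, 8 lower copies and 1 single gene, and in 9 pairs only the higher copy and in 7 only the lower copy held it. The members with a match had a median of 807 CPM per kb and those without one of 916. Matches of pairs over 2-fold apart are shown here with the motif in capitals and 20 bases on each side, read along the strand of the motif in R64, because both major and minor copies are among them. RPL22B and RPL36A are lower copies, and RPL33A, RPL7A, RPS21B and RPS23B are higher copies.
RPL22B, chrVI:65149-65199, minus strand: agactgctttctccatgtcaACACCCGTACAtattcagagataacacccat
RPL36A, chrXIII:650961-651011, plus strand: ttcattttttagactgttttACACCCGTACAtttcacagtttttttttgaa
RPL33A, chrXVI:281746-281796, plus strand: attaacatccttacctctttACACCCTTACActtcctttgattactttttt
RPL7A, chrVII:366219-366269, minus strand: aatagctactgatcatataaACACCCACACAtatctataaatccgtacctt
RPS21B, chrX:157587-157637, minus strand: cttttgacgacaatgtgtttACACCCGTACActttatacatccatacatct
RPS23B, chrXVI:794635-794685, plus strand: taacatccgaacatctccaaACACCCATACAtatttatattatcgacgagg
In these, the distance from the motif to the start codon ran from 153 bases in RPL36A to 345 in RPL33A. RPL22B, the lowest member, thus carries the same letters ACACCCGTACA as RPS21B, which is among the higher copies. A match of letters is no evidence of binding.

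Other motifs were less distinctive in the 500 bases. GACGCA, the Fhl1 motif, occurred in 15.3% of members and 10.3% of all genes, and AAAAATTT, a motif of ribosome assembly genes, in 25.5% and 20.7%. The Abf1 motif occurred in 17.5% and 22.8%, and the stress element AGGGG in 27.0% and 34.4%. All were searched on both strands.

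The regulators of these genes were transcribed at far lower levels than the genes themselves. The 16 listed regulators ran from 13.3 CPM per kb for TOR1 to 374 for DOT6, a repressor of ribosome assembly genes, with a median of 58.0, and 0 of them exceeded the median member at 914. The median of all 5898 matched features was 44.1, 44.6 and 46.9 CPM per kb in replicates 1, 2 and 3. RAP1 stood at 21.0, 45.3 and 65.6 CPM per kb in replicates 1, 2 and 3. FHL1, a transcription factor gene, stood at 36.5, 24.1 and 18.4, and IFH1, a coactivator gene, at 29.1, 21.0 and 16.8. SFP1, an activator that responds to nutrients, stood at 33.8, 67.4 and 52.7. HMO1, a high mobility group protein gene, was steadier, at 370, 317 and 314 CPM per kb. Replicate 2 was the lowest library for 2 of the 16, CRF1, a corepressor gene, and ABF1, against 38.1% of all features averaging 10 CPM or more. The corresponding number of members was 126 of 137, a difference that was not tested.

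The signalling genes of the list were measured as well. TOR2 stood at 25.2 ± 3.75 CPM per kb, SCH9, the kinase gene downstream of TOR, at 111 ± 15.1, and the protein kinase A genes TPK2 and TPK3 at 214 ± 17.2 and 18.8 ± 12.4 (SD, n = 3 each). The repressor genes STB3 and TOD6 stood at 140 ± 24.3 and 64.6 ± 9.56 (SD, n = 3 each).

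Chaperones that guard single ribosomal proteins before assembly also stood below the median member. The 8 listed genes ran from 7.70 CPM per kb for SYO1, whose protein carries Rpl5 and Rpl11, to 216 for YAR1, the chaperone of Rps3, with a median of 45.9. That is close to the median of all 5898 matched features, at 44.1, 44.6 and 46.9 in replicates 1, 2 and 3. RRB1, the chaperone of Rpl3, stood at 127, 83.2 and 150 CPM per kb in replicates 1, 2 and 3. SQT1, that of Rpl10, stood at 54.9, 25.0 and 53.4, BCP1, that of Rpl23, at 50.5, 26.5 and 65.1, and FAP7, that of Rps14, at 53.8, 0 and 43.0. Replicate 2 was the lowest library in these 4 of the 8 genes, against 38.1% of all features, and not in SYO1, ACL4, YAR1 and TSR2. FAP7 is among the 24 genes listed at 0 in replicate 2 alone. ACL4, the chaperone of Rpl4, stood at 68.7 ± 18.0 and TSR2, that of Rps26, at 34.8 ± 13.5 CPM per kb (SD, n = 3 each).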

How the data were processed

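The authors deposited raw read counts per feature, 1 table per library. The submitters' processing notes name TopHat, HTSeq, FastQC and DESeq2. Their versions and the strand setting, genome build and annotation were not given in the sources used here. Counts were divided by library totals to give CPM, and by the coding length of the R64 annotation. Symbols, introns, coding sequences and upstream windows came from RefSeq R64, read by gene name, and 674 of 6572 features had no match in its gene table. Unmatched features may overlap members, and reads there are uncertain. In log2 values a count of 0 was set to 3 reads. Ratios were taken within a library and tested, for single values, by an exact sign-flip permutation over 3 libraries. Without features shared with Biocodex, no test between strains was made. Shared reads were judged by 50-base words of the coding sequences.

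Members, lists and tests were chosen with earlier results of these data known. The genes to name were set by rule: the 6 widest and 6 closest pairs, the 8 highest and 8 lowest members, the stalk genes, the 5 most variable members, genes with known feedback, 9 single genes and the lists. Some genes that the rule names are not reported here, nor drawn by name, though counts and medians include them. The remaining names were added after their values were seen. The call of genes over 1.5-fold lower in replicate 2 and the ratios within pairs were tested on simulated data, and the other steps were not. Alternatives used TMM factors of edgeR 4.0.16 and size factors of DESeq2 1.42.0 under R 4.3.3. Python 3.11.15, numpy 2.4.6, pandas 2.3.3, SciPy 1.17.1, Biopython 1.88 and matplotlib 3.10.9 were used.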

Additional observations from a re-analysis of the deposited data

How the results depend on the processing

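Of 71 values recomputed under alternatives, 61 stayed within the spread between libraries or, for counts, within 1.5 times. Of the log2 differences 0 changed sign, while the shares, counts and SDs among the 71 cannot change sign. Omitting 1 library gave 53 to 57 pairs with a kept order and 20 to 23 pairs over 2-fold apart, counts that asking for fewer libraries can only keep or raise. The members lower in replicate 2 were 71 without replicate 1 and 74 without replicate 3. TMM factors, size factors and thinning gave 68, 66 and 69 for the last count. Per kb of unique 50-base words, the log2 difference of single genes was 0.73 against copies and -0.41 against summed pairs, the SD was 1.47 over genes and 1.15 over proteins, and the intron difference was -0.86. That difference was -0.80 without near-identical pairs and, in an alternative chosen after seeing the data, -0.17 among copies of pairs. The subunit difference was 0.0784 per protein. Also chosen after seeing the data, 200 added bases gave -0.0855 for single genes against summed pairs, and leaving out RPL41 gave an SD over proteins of 0.77. The cause of these shifts was not tested. No paired analysis was possible because the strains share 0 feature names. Groups of 3 are too small for the check on single outlying samples.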

Other observations

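Several members are direct neighbours in the R64 gene table, and 1 neighbourhood that exists in duplicate is given here. It was looked up after the levels had been seen, and it is described without a test. RPL13 and RPS16 form a divergent duplicate: RPL13B at 1334 ± 280 CPM per kb lies beside RPS16A at 548 ± 203, and RPL13A at 727 ± 146 beside RPS16B at 648 ± 195 (SD, n = 3 each). Here the copy of RPL13 with the higher level lies beside a copy of RPS16 that did not keep a fixed order with its partner.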
